A study of Mus musculus with 4 samples.

Results

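The chitinases and chitinase-like proteins of the mouse were followed in lung RNA as 6 genes, Chil1, Chil3, Chil4, Chia1, Chit1 and Ctbs, out of 41079 genes counted. The members were chosen by symbol as a gene family, with their counts in the same 4 libraries already known, Chil4 among them. Their levels and fold changes are therefore given as descriptions without a test. Except for 1, the symbols are spelled in the count table as given here, the exception being Chil1, which is listed there as Chi3l1 and was matched by its Entrez identifier. In all, 5 of the 6 genes had at least 10 counts in 1 library or more, and Chit1 did not.

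Lung RNA-seq was performed to ask whether loss of Rab44, a large Rab GTPase, affects gene expression in normal lungs and in lungs with allergic airway inflammation induced by ovalbumin (OVA). Each of 4 conditions had 1 library, called normal WT, normal KO, OVA WT and OVA KO here, where KO stands for Rab44-KO and OVA for OVA-induced. All groups shared the C57BL/6 background, and the KO mice carried a Rab44 gene edited by CRISPR/Cas9. The published methods describe female littermates aged 8 to 14 weeks. For OVA induction, mice were given 100 μg OVA and alum by the intraperitoneal route on days 0, 7 and 14, and then 100 μg OVA in 50 μL by the intranasal route from day 17 to day 20, with analysis on day 21. Normal mice are labelled as untreated, although the protocol text attached to them also names PBS. The number of mice behind each library and whether the sequenced lungs had been lavaged are not given in the sources used here. Because each condition was 1 library, every difference below is a difference between libraries, and every range is a 95% interval that covers counting error only, exact except for differences between 2 log2FC values, where it is approximate.

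Total counts ran from 18112901 to 19910236 per library. The targeted gene, Rab44, had 251 counts in normal WT, 1 in normal KO, 810 in OVA WT and 0 in OVA KO lungs, which is the order its labels call for. The Y-linked genes Ddx3y (1536 to 2216 counts) and Kdm5d (484 to 731 counts) were expressed in all 4 libraries, which goes against the sex named in the methods. Xist, transcribed from the inactive X chromosome of females, had 41 counts in normal WT, 40 in normal KO, 538 in OVA WT and 72 in OVA KO lungs. Eif2s3y, also Y-linked, had 397 counts in normal WT and 1259 to 1730 in the other libraries, so that the normal WT library stood apart in this gene. The OVA WT library stood apart in Xist, and it is also the library in which Chil1, Chil3, Chil4 and Chia1 were highest. Their levels cannot be given without that library, since it is the only one of its condition, and the part of these differences in the results was not tested.

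Glycosyl hydrolase family 18 proteins share a barrel-shaped domain that binds chitin, the polymer of N-acetylglucosamine in fungal walls, insects and mites. True chitinases keep a catalytic glutamate at the end of a conserved motif and cut chitin. Chitinase-like proteins have lost that residue, bind sugars without cutting them, and are secreted in large amounts in type 2 inflammation. In the mouse lung, Chia1 (acidic mammalian chitinase) comes mainly from airway epithelium and macrophages, Chil1 (BRP-39, the counterpart of human YKL-40) from macrophages, neutrophils and epithelium, Chil3 (Ym1) from alveolar and alternatively activated macrophages and from neutrophils, and Chil4 (Ym2) from airway epithelium in allergic disease. Chit1 is the macrophage chitotriosidase, and Ctbs is the lysosomal di-N-acetylchitobiase that trims the sugar core of glycoproteins.

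The split between enzymes and chitinase-like proteins can be read in the coding sequence. The 24 coding bases that encode the catalytic motif are shown for each member, from GENCODE M21 transcripts on GRCm38 and in the direction of transcription, with the codon at the catalytic position in capitals, because this codon separates the genes that responded into those with and those without the catalytic residue.
Chia1: gatggactggacctggactggGAA
Chit1: gatggccttgaccttgactggGAG
Ctbs: gatgggattaatatagacataGAG
Chil3: gatggcctcaacctggactggCAG
Chil4: gatggcctcaacctggactggCAG
Chil1: gatgggctggatctcgcctggCTC
The last codon encodes glutamate in Chia1 (chr3:106122448-106122471, plus strand, exon 5 of 11), Chit1 (chr1:134145334-134145357, plus strand, exon 6 of 12) and Ctbs (chr3:146455037-146455060, plus strand, exon 3 of 7). It encodes glutamine in Chil3 (chr3:106160428-106160451, minus strand, exon 5 of 11) and Chil4 (chr3:106210533-106210556, minus strand, exon 5 of 11), whose 24 bases are the same, and leucine in Chil1 (chr1:134185231-134185254, plus strand, exon 5 of 10). Of the relatives outside the 6 members, Chil5 and Chil6 also end in CAG, for glutamine, and Ovgp1, the oviductal glycoprotein, ends in TTG, for leucine.

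Some members lie side by side. On chromosome 3 of GRCm38, Chia1 (106113229 to 106132120, plus strand), Chil3 (106147554 to 106167564, minus strand) and Chil4 (106201490 to 106219507, minus strand) span 106 kb, with gaps of 15.4 kb and 33.9 kb between them. Ctbs (146449795 to 146465849, plus strand) is 40.2 Mb further along the same chromosome. Chit1 (134111242 to 134151540, plus strand) and Chil1 (134182176 to 134190181, plus strand) are neighbors on chromosome 1, 30.6 kb apart. All are protein-coding genes.

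Chil3 and Chil4 are the closest pair of the family. Their coding sequences were identical at 1139 of 1194 aligned bases (95.4%), and 350 codons were the same. By comparison, Chil3 shared 74.9% of aligned coding bases with Chia1, 53.9% with Chil1 and 40.5% with Ctbs. The transcripts of the 6 members held no stretch of 150 bases, the length of 1 read, that also occurs in a transcript of another gene. At 100 bases, 5.42% of Chil3 windows and 3.75% of Chil4 windows were shared, with each other or, for Chil3, also with Gm6522. At 50 bases these shares were 29.4% and 20.4%. Only annotated transcripts were searched, with 1 transcript for each member, and the rest of the genome was not. Within these transcripts, a whole and exact read has 1 gene of origin. Shorter or mismatched reads could be split between Chil3, Chil4 and Gm6522. How the counting treated reads with several matches is not given in the sources used here.

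The sequence before the 2 genes was also alike, and it is shown because Chil3 and Chil4 behaved differently in normal lungs. The stretches run from 20 bases before a TTCNNNGAA match to the end of a TATAAA match, 195 bases each, in the direction of transcription, from the RefSeq promoter table on GRCm38.p6, with both matches in capitals.
Chil3: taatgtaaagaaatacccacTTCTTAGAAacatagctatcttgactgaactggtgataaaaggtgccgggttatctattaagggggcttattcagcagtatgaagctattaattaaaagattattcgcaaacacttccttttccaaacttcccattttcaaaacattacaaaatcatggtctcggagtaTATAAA
Chil4: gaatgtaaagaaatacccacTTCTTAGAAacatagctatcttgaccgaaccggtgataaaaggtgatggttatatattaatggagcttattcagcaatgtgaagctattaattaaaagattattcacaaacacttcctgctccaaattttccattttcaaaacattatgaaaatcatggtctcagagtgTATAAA
The Chil3 stretch is chr3:106167562-106167756 and the Chil4 stretch chr3:106219505-106219699, both on the minus strand. They were identical at 176 of 194 aligned bases (90.7%). In both, the first match begins 169 bases before the TATAAA match. RefSeq places the transcript start of Chil3 only 3 bases after the beginning of its TATAAA match and that of Chil4 31 bases after it, but this is a difference of annotation, since the GENCODE M21 ends of both genes lie 3 bases after it. TTCNNNGAA has the shape bound by STAT factors, and TTCNNNNGAA, with 1 more base between its arms, is the form preferred by STAT6, the factor downstream of IL-4 and IL-13. Both strands of the 300-base RefSeq promoters (250 bases before the start and 50 after) were searched. Of 32851 promoters, 8.30% held TTCNNNGAA, 6.95% TTCNNNNGAA and 13.6% TATAAA. Of the 6 members, Chil3 and Chil4 held TTCNNNGAA, none held TTCNNNNGAA in this window, and Chil3, Chil4 and Chia1 held TATAAA. Outside the members, the relative Chil6, which was nearly absent from all libraries, also held TTCNNNGAA and TATAAA. The TATAAA match of Chia1 begins 43 bases before its start.

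Among the chitinase-like proteins, Chil3 was the most abundant member in OVA-induced lungs. Its counts were 6811 in normal WT, 5639 in normal KO, 101647 in OVA WT and 17869 in OVA KO lungs. Scaled for library size, these were 355, 309, 5248 and 917 CPM, the counts per 1000000 of the library. In TPM, transcripts per 1000000, which also divide by gene length and so allow genes to be compared, Chil3 was 7th of all genes in OVA WT lungs at 7314 TPM, and 40th in OVA KO lungs at 1602 TPM. Both OVA-induced libraries were above both normal ones, and the OVA WT library was far above the rest.

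Chil4 showed the widest range of the members, and it was close to absent from normal lungs. There were 2 counts in normal WT, 1 in normal KO, 7063 in OVA WT and 19 in OVA KO lungs, or 0.104, 0.0548, 365 and 0.975 CPM. A count of 1 or 2 leaves wide intervals of 0.0126 to 0.376 CPM for normal WT and 0.00139 to 0.305 CPM for normal KO lungs. Only the OVA WT library held Chil4 at a level near that of the other members, at 505 TPM. At 19 counts, the OVA KO library was above both normal libraries beyond counting error, with an interval of 0.587 to 1.52 CPM. Whether some of these 19 counts came from reads of Chil3, which shares sequence with Chil4, was not tested.

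Chil1 was the most abundant member in both normal lungs. Its counts were 9734 in normal WT, 11842 in normal KO, 47458 in OVA WT and 11937 in OVA KO lungs, or 507, 649, 2450 and 612 CPM. The OVA WT library stood alone, and the other 3 libraries lay within a narrow range. In CPM, Chil1 in OVA KO lungs was between the values of the 2 normal libraries, whereas in TPM it was above both (782 against 583 and 760).

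Of the enzymes, Chia1 had 1547 counts in normal WT, 963 in normal KO, 9990 in OVA WT and 1764 in OVA KO lungs, or 80.6, 52.8, 516 and 90.5 CPM. It too was highest in OVA WT lungs. Its lowest value was in normal KO lungs. Ctbs had 418, 435, 351 and 400 counts in the same order of libraries, or 21.8, 23.8, 18.1 and 20.5 CPM, and it was the flattest member that was measured. Chit1 had 1 count in normal WT, 0 in normal KO, 1 in OVA WT and 0 in OVA KO lungs. A count of 0 allows up to 3 counts as a one-sided limit, which is 0.164 CPM in normal KO and 0.154 CPM in OVA KO lungs, so no difference in Chit1 was detectable at this depth.

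**Figure D1:**
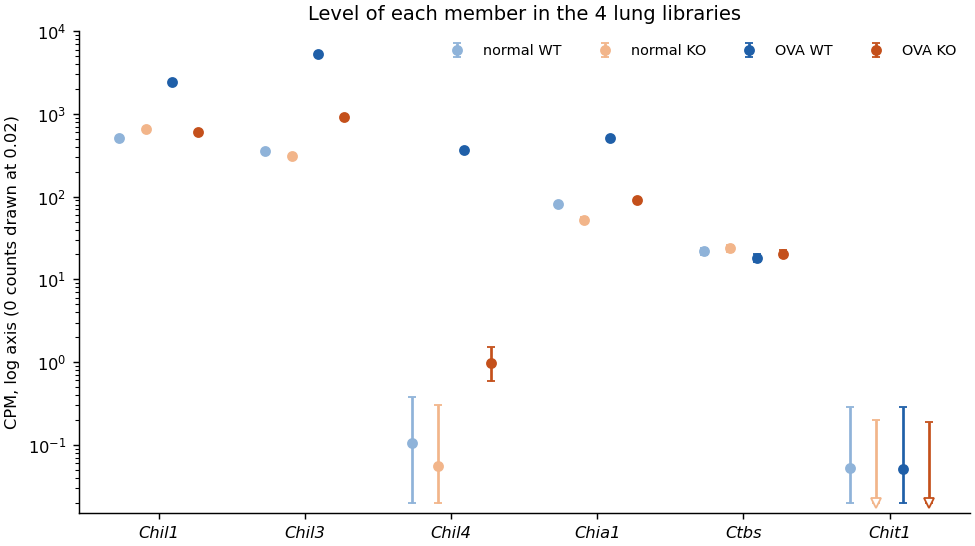
Level of each member in CPM (log axis) in the normal WT, normal KO, OVA WT and OVA KO library; bars are exact 95% Poisson intervals for counting error, cut at the bottom of the axis, and open triangles are 0 counts. Chil1, Chil3, Chil4 and Chia1 are highest in the OVA WT library, Chil4 falls to 0.975 CPM in OVA KO lungs, and Ctbs stays between 18.1 and 23.8 CPM.

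In WT lungs, OVA induction went with higher RNA of 4 of the 5 members that had at least 10 counts in 1 of the 2 libraries. Chil3 was 14.8-fold higher in the OVA-induced than in the normal library (interval 14.4 to 15.2), a log2 fold change (log2FC) of 3.89. Chia1 was 6.40-fold higher (6.07 to 6.76), a log2FC of 2.68, and Chil1 was 4.83-fold higher (4.73 to 4.94), a log2FC of 2.27. Chil4 had a ratio of 3501 (969 to 28915), which rests on 2 counts in the normal library. Its log2FC of 11.69 fell to 10.77 when a larger count of 2 was added to both libraries before taking the ratio, and to 10.91 from TPM. Ctbs had a log2FC of -0.26 (-0.47 to -0.06). Read against all genes, where 8.99% of 19023 were higher and 5.20% lower by over 2-fold, 4 of the 5 members were higher and 0 lower by over 2-fold. The median log2FC was 2.68 over these members and 0.00 over all genes compared, and neither is support for an effect, since the members were chosen with these libraries known.

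In Rab44-KO lungs the same comparison gave smaller values. Chil3 was 2.97-fold higher in the OVA-induced than in the normal library (2.88 to 3.06), a log2FC of 1.57. Chia1 was 1.71-fold higher (1.58 to 1.86), a log2FC of 0.78. Chil4 had a ratio of 17.8 (2.83 to 739), resting on 1 count in the normal library, and its log2FC of 4.00 fell to 2.76 with the added count of 2 and to 3.26 from TPM. With a minimum of 50 counts in the higher library, Chil4 would not have been read in this comparison. Chil1 had a log2FC of -0.08 (-0.12 to -0.05), and the sign turned to 0.04 both when the log2FC was taken from TPM and when the trend of log2FC with gene length was removed. Ctbs had a log2FC of -0.22 (-0.42 to -0.02). Of all 19073 genes, 6.44% were higher and 3.85% lower by over 2-fold, and of the 5 members 2 (Chil3 and Chil4) were over 2-fold higher and 0 over 2-fold lower. From TPM, 1287 of all genes were over 2-fold higher and 481 lower, against 1229 and 734 from counts. The median log2FC was 0.78 over the members and -0.01 over all genes.

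The difference between these log2FC values, Rab44-KO minus WT, was -2.36 for Chil1 (-2.41 to -2.31), -2.32 for Chil3 (-2.37 to -2.26) and -1.90 for Chia1 (-2.04 to -1.76). Chil1 and Chil3 thus fell short of their WT values by amounts whose intervals overlap, although Chil3 still had more RNA than in normal lungs and Chil1 did not. Chil4 had a difference of -7.69 with a wide interval (-10.84 to -4.86). For Ctbs the difference was 0.05 (-0.24 to 0.33), an interval that includes 0.

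Between the OVA-induced libraries, the same 4 genes were lower in KO compared with WT lungs. These comparisons share libraries with those above and are not further evidence for them. Chil1 was 4.00-fold lower (3.92 to 4.08), a log2FC of -2.001. Chil3 was 5.73-fold lower (5.64 to 5.82), a log2FC of -2.52, and Chia1 5.70-fold lower (5.42 to 6.0), a log2FC of -2.51. Chil3, a protein without the catalytic residue, and Chia1, an enzyme, therefore had log2FC values that agree within counting error. Chil4 was 374-fold lower (239 to 622), a log2FC of -8.54, and only 5 of the 19259 genes compared had a lower log2FC. Ctbs was 1.13-fold higher (0.978 to 1.31), an interval that includes 1. From TPM, Ctbs had a log2FC of 0.50 against 0.18 from counts, where the median of all genes also moved, to 0.29 from -0.02. With this shift, 2602 of all genes were over 2-fold higher and 777 lower from TPM, against 1617 and 1413 from counts. Of all genes, 8.40% were higher and 7.34% lower by over 2-fold, and of the 5 members 0 were higher and 4 lower by over 2-fold. The median log2FC was -2.51 over the members and -0.02 over all genes.

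In normal lungs, the members differed little between genotypes. Chil1 was 1.28-fold higher in the Rab44-KO than in the WT library (1.25 to 1.31), a log2FC of 0.36. Chil3 was 1.15-fold lower (1.11 to 1.19), a log2FC of -0.20, and Chia1 was 1.53-fold lower (1.41 to 1.66), a log2FC of -0.61. Ctbs had a log2FC of 0.13, with an interval from -0.07 to 0.33. Chil4, at 2 and 1 counts, and Chit1, at 1 and 0 counts, were too low for a fold change. Of 18718 genes, 2.77% were higher and 2.0% lower by over 2-fold, and 0 of the 4 members measured were beyond 2-fold in either direction. The median log2FC was -0.03 over the members and 0.00 over all genes. Since no library was repeated, whether differences of this size exceed the spread between mice was not tested.

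**Figure D2:**
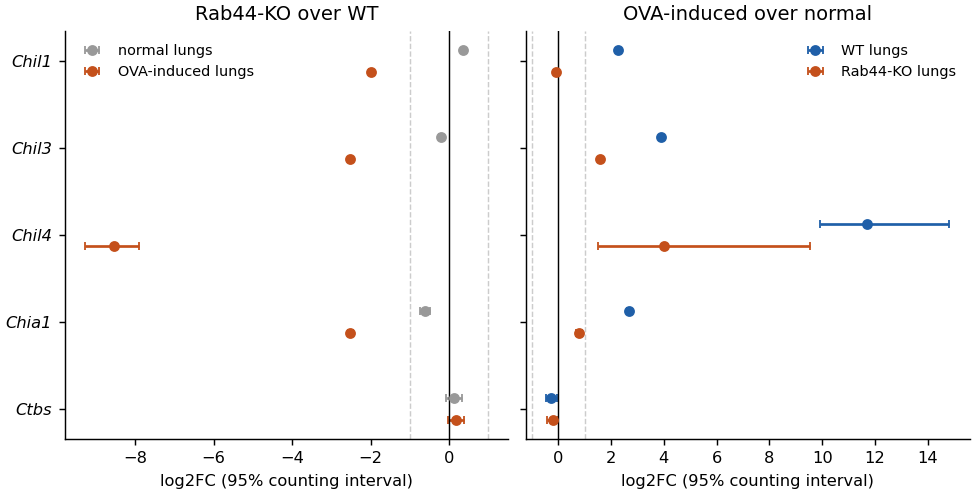
Log2 fold change of 5 members for Rab44-KO over WT (left, normal and OVA-induced lungs) and for OVA-induced over normal (right, WT and Rab44-KO lungs); bars are exact 95% counting intervals and dashed lines mark 2-fold. Chil4 has no value in normal lungs for Rab44-KO over WT, where it had 2 and 1 counts. Chil3 and Chia1 lie at -2.52 and -2.51 in OVA-induced lungs, and Ctbs is near 0 in all comparisons.

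Compared per length within a library, the order of the members changed with OVA. In normal WT lungs, Chil1 (583 TPM) was just above Chil3 (558 TPM), at a ratio of 1.04 (1.01 to 1.08), followed by Chia1 (126 TPM) and Ctbs (17.8 TPM). In normal KO lungs the order was the same, with Chil1 at 760, Chil3 at 495, Chia1 at 83.7 and Ctbs at 19.8 TPM. In OVA WT lungs, Chil3 (7314 TPM) led Chil1 (2495 TPM), Chia1 (712 TPM), Chil4 (505 TPM) and Ctbs (13.1 TPM). In OVA KO lungs, Chil3 (1602 TPM) again led Chil1 (782 TPM), Chia1 (157 TPM) and Ctbs (18.6 TPM), whereas Chil4 was at 1.69 TPM. Neighbors in each of these orders that were compared differed by more than counting error.

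Together the 6 members held 0.0966% of counts in normal WT (0.0952 to 0.0980), 0.104% in normal KO (0.103 to 0.106), 0.836% in OVA WT (0.832 to 0.840) and 0.167% in OVA KO lungs (0.165 to 0.169). Their summed level was 1284, 1359, 11039 and 2561 TPM in the same order. Chil1 supplied 45.4% of the summed TPM in normal WT and 55.9% in normal KO lungs, but 22.6% in OVA WT and 30.5% in OVA KO lungs. Chil3 supplied 43.5%, 36.4%, 66.3% and 62.6%. The make-up in OVA KO lungs was thus nearer to that of OVA WT than to that of normal lungs for these 2 genes, although the summed level was nearer to that of normal lungs.

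**Figure D3:**
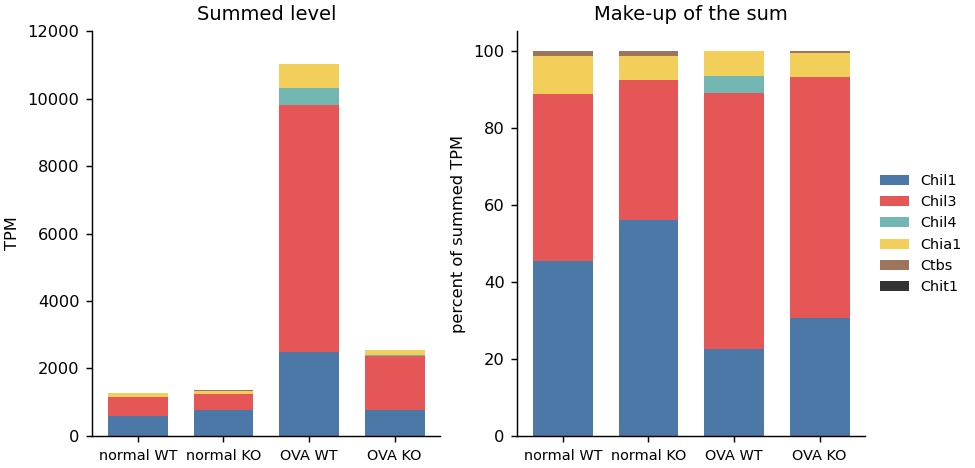
Summed level of the 6 members in TPM (left) and the percent of that sum from each member (right) in the 4 libraries, 1 library a bar. The sum is 11039 TPM in OVA WT lungs against 2561 TPM in OVA KO lungs, and Chil3 is the largest part of both.

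The paralogs Chil3 and Chil4 parted most clearly. Chil4 was 0.0292% of Chil3 in TPM in normal WT (0.00353 to 0.105), 0.0176% in normal KO (0.000446 to 0.0981), 6.90% in OVA WT (6.73 to 7.07) and 0.106% in OVA KO lungs (0.0635 to 0.165). The interval of the OVA KO library thus overlapped those of the normal libraries in this ratio, although it held 2.97-fold more Chil3 than the normal KO library. Chia1 and Chil3, by contrast, kept the same ratio in both OVA-induced libraries. Chia1 was 22.5% of Chil3 in TPM in normal WT (21.3 to 23.8), 16.9% in normal KO (15.8 to 18.1), 9.73% in OVA WT (9.53 to 9.93) and 9.77% in OVA KO lungs (9.30 to 10.3). Chil4 was 70.9% of Chia1 in OVA WT lungs (68.7 to 73.1) and 1.08% in OVA KO lungs (0.649 to 1.69).

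Of the other relatives of family 18, Chil5 differed in the opposite direction to the 4 members after OVA, and Chid1 in the same direction by less. Chil5, another chitinase-like gene of the chromosome 3 cluster, had 40 counts in normal WT, 24 in normal KO, 26 in OVA WT and 60 in OVA KO lungs. It was 2.29-fold higher in KO compared with WT lungs after OVA (1.42 to 3.78), opposite to its neighbors, at low counts. Chid1, a lysosomal protein with a chitinase domain, had 758, 702, 890 and 639 counts in the same order, with a log2FC of 0.22 for OVA over normal in WT lungs and of -0.49 for Rab44-KO over WT after OVA (-0.64 to -0.34). Ovgp1 had 35, 37, 60 and 69 counts, and shared 33.1% of its 150-base windows with Gm42890, so that its counts are uncertain. Chil6 had 0, 1, 3 and 0 counts, too few for a fold change.

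Along chromosome 3, the 100 kb on either side of the cluster and the cluster itself held 14 protein-coding genes, of which 6 belong to family 18. For Rab44-KO over WT after OVA, the 8 other genes had log2FC values from -1.82 to -0.03, and 2 of them, Tmigd3 at 39 and 11 counts and Adora3 at 19 and 6 counts, were over 2-fold lower, as were 7.34% of all genes. These 2 genes overlap each other and lie beyond Ovgp1 at the edge of the window. None of the 8 had a value as low as Chia1, Chil3 or Chil4, although the low counts of Tmigd3 (-2.95 to -0.84) and Adora3 (-3.29 to -0.29) left intervals that include the values of Chia1 and Chil3. Between Chia1 and Chil4 no other protein-coding gene is annotated.

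**Figure D4:**
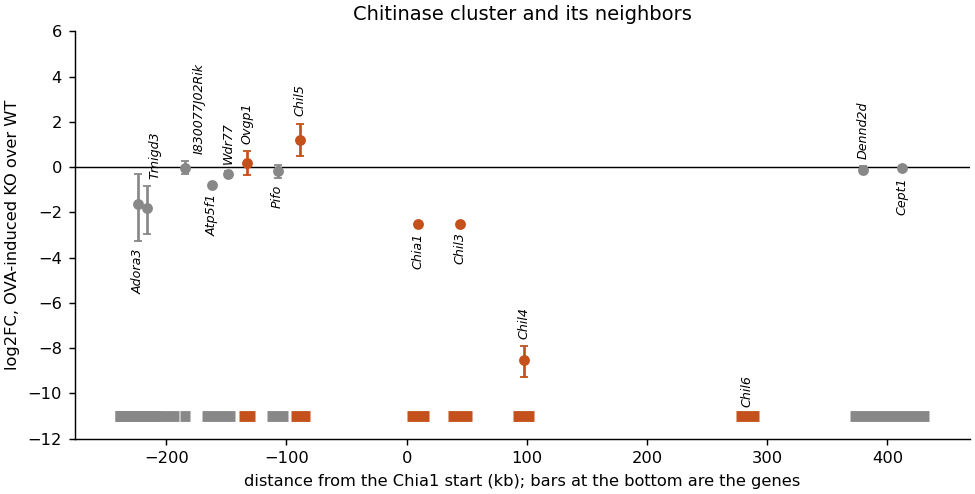
Log2 fold change of Rab44-KO over WT in OVA-induced lungs by distance from the Chia1 start in kb, for family 18 genes (orange) and the 8 other protein-coding genes within 100 kb of the cluster (gray), with exact 95% counting intervals. Chia1, Chil3 and Chil4 lie at -2.51, -2.52 and -8.54, Chil5 at 1.19, and Chil6 has no value.

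By likeness of pattern over the 4 libraries, measured as the root-mean-square difference of centered log2 CPM among 13898 genes, the 5 genes nearest to Chil1 were Slamf8, Tdo2, Gatm, Ctsd and Cd68. The nearest, Slamf8, a receptor of macrophages, differed by 0.07 with 28, 34, 159 and 34 counts. Ctsd, the lysosomal protease cathepsin D, had 10124, 10124, 40287 and 11415 counts, and Cd68, a lysosomal membrane protein of macrophages, 591, 583, 2352 and 651. Nearest to Chil3 were Ighv1-53, Mzb1, Ighv10-3, Ahsp and Xist, at differences of 0.18 to 0.31. Near to Chia1 were Slc5a1, Ctsk, Gdf15 and Mzb1, at differences of 0.23 to 0.27. Chil4 had no gene within 0.5, against 357 for Chil1, 22 for Chil3 and 56 for Chia1, and its nearest were Ighv14-2, Clca1, Rnase2a, Awat1 and an immunoglobulin kappa variable gene, at 1.30 to 1.52. Clca1, a secreted product of mucous airway cells, had 47 counts in normal WT, 108 in normal KO, 33407 in OVA WT and 77 in OVA KO lungs. With 4 libraries, many genes that separate OVA WT from the rest have similar patterns.

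Proteins proposed to bind chitin or chitinase-like proteins were next counted. Of 9 genes listed, 8 had at least 10 counts in 1 of the OVA-induced libraries, and 0 were higher and 3 lower by over 2-fold in KO compared with WT lungs, with a median log2FC of -0.66. Over all genes tested, 8.40% were higher and 7.34% lower. Clec7a, the receptor dectin-1, had 986, 896, 3913 and 979 counts in normal WT, normal KO, OVA WT and OVA KO lungs, close to the shape of Chil1, and a log2FC of -2.01 (-2.11 to -1.91). Lgals3, galectin-3, had 2483, 1798, 7321 and 2392 counts, with a log2FC of -1.62 (-1.69 to -1.56). Il13ra2, a receptor for IL-13 that has been proposed to bind Chil1, had 0, 0, 21 and 3 counts. Its partner Tmem219 had 289, 288, 323 and 229 counts, and Tlr2 had 442, 385, 563 and 322.

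Of 10 genes for type 2 cytokine signals, 8 were measured between the OVA-induced libraries, and 0 were higher and 3 lower by over 2-fold in Rab44-KO lungs, against the same 8.40% and 7.34% of all genes. Il13, a cytokine known for raising Chia1 and Chil4, had 1, 0, 13 and 0 counts, and Il4 had 6, 7, 17 and 6. Il33, an alarmin of lung epithelium, had 1302, 1441, 3834 and 2198 counts, with a log2FC of -0.81 (-0.89 to -0.74), and Il1rl1, its receptor, had 122, 106, 352 and 173. Il4ra, the shared receptor chain of IL-4 and IL-13, was higher instead, with 1866, 1974, 2581 and 3532 counts and a log2FC of 0.44 (0.37 to 0.52). The genes over 2-fold lower were Il4, Il13 and Il1rl1. Il4 and Il13 were thus at the edge of detection at this depth in all libraries.

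Of 10 genes for lysosomal breakdown of glycoproteins, 0 were higher and 1 lower by over 2-fold in KO compared with WT lungs after OVA, with a median log2FC of -0.60. Over all genes tested, 7.34% were lower by this measure, so that 1 of 10 is near the background. Hexa, a subunit of beta-hexosaminidase, had 2140, 1859, 4727 and 2158 counts, with a log2FC of -1.14 (-1.21 to -1.07). Neu1, the lysosomal sialidase, had a log2FC of -0.94 (-1.09 to -0.80). Of 10 genes of amino sugar metabolism, 0 were higher and 1 lower by over 2-fold, also near the background, with a median log2FC of -0.29. Amdhd2 (-1.05), Renbp (-0.99) and Gfpt2 (0.85) had the largest log2FC values in size among those with at least 100 counts.

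Of the 13 marker lists, those of alternatively activated macrophages, goblet cells, eosinophils and interstitial macrophages had sums over 2-fold higher in OVA WT lungs than in each of the other libraries. In bulk RNA, fewer cells of a type and less RNA per cell cannot be told apart. The summed CPM of 7 markers of alternatively activated macrophages was 131 in normal WT, 138 in normal KO, 2543 in OVA WT and 172 in OVA KO lungs, and 6 of the 7 were over 2-fold lower in KO compared with WT lungs after OVA, as were 7.34% of all genes. In OVA WT lungs 2306 of the 2543 CPM were Retnla, with 578, 771, 44659 and 944 counts in the 4 libraries, and in the other libraries Mrc1 was the largest part (77.5 to 103 CPM). The 8 goblet cell markers summed to 71.8, 77.7, 1939 and 59.8 CPM, and all 8 were over 2-fold lower. Clca1 alone made up 1725 of the 1939 CPM in OVA WT lungs. The 8 eosinophil markers summed to 43.8, 45.4, 128 and 50.7 CPM, and 6 of the 7 measured were over 2-fold lower, but Epx, the eosinophil peroxidase that defines the granule, had 0 counts in 3 libraries and 1 in OVA WT lungs. The 5 interstitial macrophage markers summed to 98.7, 99.7, 348 and 120 CPM, with 3 of 5 over 2-fold lower.

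Other lists moved less or otherwise. The 10 alveolar macrophage markers summed to 486, 451, 751 and 442 CPM, with 2 of 10 over 2-fold lower (Marco and Siglecf) and 1 over 2-fold higher (Fabp1), against 7.34% and 8.40% of all genes. Siglecf is also among the eosinophil markers. Marco, a scavenger receptor, had 145, 379, 912 and 76 counts. The 10 neutrophil markers summed to 116, 143, 593 and 724 CPM, the highest sum being that of OVA KO lungs, with 2 of 10 higher and 0 lower by over 2-fold. Ly6g, Ngp and Camp were at 0 in normal WT lungs. Club cell markers summed to 25785, 26211, 18020 and 20921 CPM and alveolar type 2 markers to 20717, 20721, 29840 and 18041 CPM, so that the lung epithelium was present in all libraries. Ciliated cell markers ran from 530 to 671 CPM, alveolar type 1 markers from 1895 to 3114 CPM and endothelial markers from 1824 to 2487 CPM.

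Chia1 and related genes are also abundant in stomach and salivary gland. Stomach markers summed to at most 3.92 CPM, with Gkn1 at 0 in all libraries, and salivary gland markers to at most 10.2 CPM, nearly all of it Amy1, with Smr3a at 0 in all libraries. The part of changes in cell make-up in the levels of Chil1, Chil3, Chil4 and Chia1 was not tested.

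**Figure D5:**
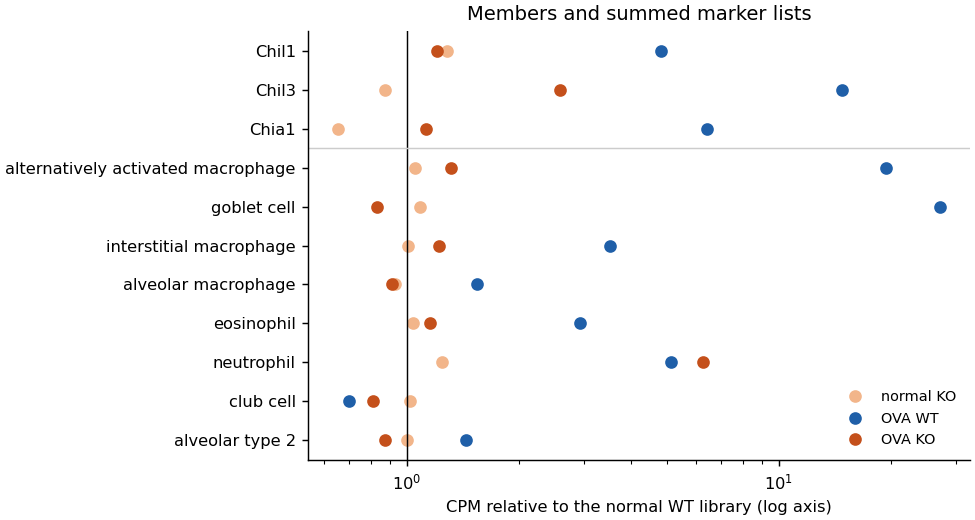
CPM of Chil1, Chil3 and Chia1 (top) and summed CPM of marker lists (below) in the normal KO, OVA WT and OVA KO library, each relative to the normal WT library (log axis, vertical line at 1). Alternatively activated macrophage and goblet cell markers are far to the right in OVA WT lungs alone, whereas neutrophil markers are raised in both OVA-induced libraries.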

How the data were processed

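Per the labels and the published methods, the authors prepared lung libraries with a directional kit, aligned 150-bp paired-end reads with HISAT2 to GRCm38 and assigned them to genes with featureCounts, while the submitters' processing notes also name DESeq2. Versions, the strand setting and the handling of reads with several matches are not given in the sources used here. The authors deposited raw counts and, in a separate table, TPM, which sum to 1000000 per library. Only 2.12% of 39405 genes matched by Entrez identifier start in the deposited table where RefSeq places them on GRCm38, so positions are from GENCODE M21 and no coordinates were converted.

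Counts were scaled by TMM over the 4 libraries in edgeR 4.0.16 (R 4.3.3, with DESeq2 1.42.0 for its size factors as an alternative), with factors from 0.973 to 1.02. The log2FC used a prior count of 0.125 and was read where the higher of both libraries had at least 10 counts, and over 2-fold means beyond a log2FC of 1. With 1 library per condition no p-value was computed. Ratios and shares have exact Clopper-Pearson intervals and CPM exact Poisson intervals, all at 95% and for counting error only. Differences of 2 log2FC values used a delta method with 0.5 added to each count. PCR copies are not told apart, so counts are not independent molecules. A count of 0 was read as up to 3 counts.

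The members and the 19 gene lists (13 of them marker lists) were chosen with earlier results of these data known. Named are the members, the other family 18 relatives, the 3 genes per further list with the largest log2FC in size after OVA and at least 100 counts, and the 5 genes nearest in pattern to a member. Of the genes this rule names, 2 are not reported here. Further genes were named after their values were seen: Rab44 and sex-linked genes as checks, Il13, Il4, Il13ra2, Tmem219, Epx, Mrc1, Ly6g, Camp, Gkn1 and Smr3a as defining markers, ligands or receptors, and Tmigd3 and Adora3 as neighbors. The scaling, the log2FC and the ratio intervals were tested on simulated counts with counting error only. That simulation held no spread between mice, and the other steps were not tested in this way. Sequences were read and aligned with Biopython 1.88, and figures drawn with matplotlib 3.10.9. Protein sequences were not used here. Alternatives were other scalings, prior counts, count minimums and fold limits, TPM, thinned counts, removal of a length trend over windows of 501 genes, member shares from counts, and shorter sequence windows.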

Additional observations from a re-analysis of the deposited data

Results flagged for a closer look

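With 1 library per condition, groups of 4 or more libraries do not exist, so libraries were not compared for extremes within a group. Among family 18 genes, those whose counting intervals lay on opposite sides of 0 in matching comparisons were looked for. Chil1 was higher in Rab44-KO than in WT normal lungs (log2FC 0.36) and lower after OVA (-2.001), a difference of -2.36. In the other direction of the same 4 libraries, Chil1 was higher after OVA in WT (2.27) and slightly lower in Rab44-KO lungs (-0.08), a difference of -2.36, but the sign in Rab44-KO lungs turned to 0.04 from TPM or with the length trend removed. Chid1, the lysosomal relative, was higher after OVA in WT (0.22) and lower in Rab44-KO lungs (-0.23), a difference of -0.45. These differences in direction rest on 1 library each and were not tested.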

How the results depend on the processing

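No member over 2-fold higher or lower changed direction under any alternative, and the sign of Chil1 for OVA-induced over normal in Rab44-KO lungs was the one that turned. With 1 library per condition no library was left out, and no spread between mice was measured. No paired analysis was possible because each condition had 1 library and the labels carry no replicate numbers. Depth limits Chit1, Chil6 and, in normal lungs, Chil4, which had at most 3 counts there. Why alternatives differed was not tested, except that count minimums change how many genes enter.

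Of 133 values of a member's log2FC under an alternative, 109 stayed within the counting interval of the reported value. For Rab44-KO over WT after OVA, total counts gave -1.93 for Chil1 and -2.45 for Chil3. TPM gave -1.67 for Chil1, -2.19 for Chil3, -2.18 for Chia1 and 0.50 for Ctbs, and removal of the length trend -1.71, -2.16, -2.15 and 0.41. For OVA-induced over normal WT lungs, total counts gave 2.23 for Chil1 and 3.84 for Chil3, TPM 2.10 for Chil1, 3.71 for Chil3 and 2.50 for Chia1, and removal of the length trend 2.14, 3.72 and 2.53. In Rab44-KO lungs, TPM gave 0.041, 1.69 and 0.90 for the same 3 genes, and removal of the length trend 0.043, 1.70 and 0.93. The difference of the responses became -2.30 for Chil1 and -2.26 for Chil3 with total counts, -2.06, -2.02, -1.60 and 0.35 for Chil1, Chil3, Chia1 and Ctbs from TPM, and -2.10, -2.02 and -1.59 for Chil1, Chil3 and Chia1 without the length trend.

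The number of members over 2-fold higher after OVA in Rab44-KO lungs was 1 with a count minimum of 50 (Chil3) and 1 above a log2FC of 2 (Chil4), against 2. In normal lungs, 1 member was over 2-fold lower in Rab44-KO with a count minimum of 1 (Chit1, at 1 and 0 counts). Of all genes, a count minimum of 1 gave 3068 higher and 2521 lower in Rab44-KO normal lungs, 4404 and 3552 in Rab44-KO after OVA, 4219 and 3325 after OVA in WT, and 3937 and 3136 after OVA in Rab44-KO lungs. A minimum of 50 gave 75 and 26, 754 and 791, 989 and 361, and 478 and 285 for the same comparisons. A log2FC above 2 gave 106 and 74, 350 and 413, 647 and 217, and 371 and 129. TPM gave 2602 higher and 777 lower for Rab44-KO over WT after OVA, and 481 lower after OVA in Rab44-KO lungs.

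By raw counts, which favor longer genes, Chil1 took 52.6% of the members' sum in normal WT, 62.7% in normal KO, 28.5% in OVA WT and 37.3% in OVA KO lungs. Chil3 took 36.8%, 29.9%, 61.0% and 55.9%, Chia1 8.36%, 5.10%, 6.0% and 5.51%, and Chil4 4.24% in OVA WT lungs. The order of Chil1 and Chil3 within each library was the same by counts and by TPM.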
